A study of Mus musculus with 7 samples.

Results

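The sites described here are the accessible chromatin sites of mouse epiblast-like cells (EpiLCs) that lay inside exons and away from promoters. A site was taken when its midpoint fell in an exon of a curated RefSeq transcript of the mm10 genome and more than 1 kb from the nearest curated RefSeq transcription start site (TSS). The rule concerns the midpoint alone, so a wide site can still reach over a TSS. Of 75880 sites in the deposited table, 73736 lay on the 19 autosomes, and 2933 of these met the rule. The midpoint was in coding sequence at 2049 sites (69.9%), in a 3′ untranslated region (UTR) at 658, in a 5′ UTR at 57 and in an exon of a noncoding transcript at 169. Beside them, 22422 autosomal sites were intronic, 33920 were intergenic and 14461 lay within 1 kb of a TSS.

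ATAC-seq measures where the Tn5 transposase can insert sequencing adapters into chromatin, so that DNA free of nucleosomes gives many reads. Open sites are best known at promoters and at enhancers in introns or between genes. Exons can hold them too, because a coding exon may also carry an enhancer, an alternative promoter or a binding site of an architectural factor such as CTCF. In EpiLCs, a culture model of the primed epiblast, Smad2 and Smad3 carry the Nodal and Activin signal to the genome, often together with FoxH1 and near sites of Oct4 and Otx2.

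Wildtype EpiLCs of embryonic stem cell clone CCE were compared with Smad23DKO EpiLCs of clone KT15.1F6, which carries a targeted Smad2 allele and a deletion of the Smad3 promoter and exon 1. Both were of strain 129/Sv//Ev and were collected on day 2, after 48 h in 20 ng/ml Activin A and 12 ng/ml Fgf2. There were 3 differentiations of each genotype and 1 library of wildtype genomic DNA treated with Tn5. Each genotype was 1 clone, so clone and genotype cannot be told apart. The deposited table gives 1 concentration per genotype and site, the log2 of the mean normalised read number over that genotype's libraries, and no value per library. These concentrations carry neither the spread between differentiations nor the depth of each library, the authors' own statistics in the table were not used, and no difference below was tested. In bulk cells, a lower value in every cell and a site lost from some of the cells cannot be told apart.

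As a check of the labels, the Smad3 promoter site had a concentration of 5.42 in wildtype and was listed at the lowest value of the Smad23DKO column, -0.10. The Smad2 promoter site had 8.35 and 8.28. Promoter sites were present for 4 of 6 primed epiblast markers (wildtype concentration 5.66 to 7.71, with no site within 1 kb of the Otx2 and Pou3f1 TSSs), but also for 4 of 5 trophoblast, 4 of 5 primitive endoderm and 4 of 4 fibroblast markers. The wildtype ranges of these were 4.55 to 8.50, 3.42 to 9.13 and 4.08 to 7.81. Promoter accessibility thus did not single out the labelled cell type.

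Short stretches of coding sequence show what such a site reads like, as codons and as letters that a DNA-binding factor could use. Each stretch is 30 bases of the GRCm38/mm10 reference, 5′ to 3′ on the strand of the gene, taken wholly from coding sequence under a named site, with the motif letters, or their reverse complement, in capitals. The first set holds the CTCF consensus, the longest of the motifs looked for, in exon 9 of Sema4f, a semaphorin (chr6:82917904-82917933, minus strand), and exon 29 of Lama1, a laminin chain (chr17:67776957-67776986, plus strand).
Sema4f: ctgatggccGCCCCCTGCTGGtcactacgg
Lama1: ggggaccccGCCCTCTGCTGGctccttgtg
The next set holds letters of factors that act beside Smad2 and Smad3 or in pluripotent cells. TGTGGATT of FoxH1 lay in exon 4 of Mrc2, a collagen-binding receptor (chr11:105328332-105328361, plus), exon 43 of Syne1, a nuclear envelope spectrin (chr10:5317864-5317893, minus) and exon 3 of Fgfrl1, an FGF receptor-like protein (chr5:108703402-108703431, plus). GGATTA of Otx2 lay in exon 2 of Bmp4, a BMP ligand (chr14:46385831-46385860, minus), and ATGCAAAT, the octamer of Oct4 and other POU factors, in exon 1 of Pcdh17, a protocadherin (chr14:84446429-84446458, plus).
Mrc2: gtttaacttccAATCCACActgtcctggag
Syne1: gagctgaaaaaAATCCACAgcggcgatttc
Fgfrl1: gatggccgcacAATCCACAgtggctggagc
Bmp4: cgccgtcattccGGATTAcatgagggatct
Pcdh17: acgacaaggagATTTGCATgatcaaggtag
The last set holds GGAATG, the letters read by Tead factors, in exon 3 of Zfp853, a zinc finger gene (chr5:143288073-143288102, minus), and exon 15 of Robo1, a Slit receptor (chr16:72979934-72979963, plus).
Zfp853: agcttctcacaaCATTCCaacctggtgacc
Robo1: gacacacaaaatGGAATGgtccaagaatat
The concentrations at these sites in wildtype and Smad23DKO were 4.83 and 3.73 for Sema4f, 4.99 and 4.72 for Lama1, 6.80 and 6.12 for Mrc2, 5.07 and 5.14 for Syne1, and 3.26 and 2.14 for Fgfrl1. They were 3.80 and 2.75 for Bmp4, 9.24 and 9.02 for Pcdh17, 5.19 and 3.88 for Zfp853, and 4.75 and 3.91 for Robo1. A value below wildtype was found at 8 of these 9 sites, beside 57.5% of all autosomal sites, but sites were named partly for the size of their difference and these stretches were picked from 20 matches. Matches not shown include higher sites, such as GGAATG in exon 7 of Palld (difference 0.87) and exon 55 of Syne1 (0.29).

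Sites were dense in coding sequence. Outside 1 kb of a TSS, coding sequence held 70.1 sites per Mb and 5′ UTR sequence 85.3, against 27.5 in 3′ UTRs, 36.0 in noncoding exons, 24.8 in introns and 24.5 between genes. These lengths count all known bases, repeats included. The authors kept uniquely placed reads only, and the part of each class where reads can be so placed was not computed. A transcript start of the GENCODE annotation lay within 1 kb of 57.9% of 5′ UTR and 24.1% of coding sites. The shares were 7.14% in 3′ UTRs, 14.2% in noncoding exons, 9.68% in introns and 5.95% between genes. Densities and widths were not recomputed without such sites. The median width was 380 bp in coding exons (quartiles 260 and 580), 340 bp in 3′ UTRs (242.5 and 480), 470 bp in 5′ UTRs (340 and 720) and 380 bp in noncoding exons (270 and 520). Intronic sites had a median of 350 bp, intergenic sites 360 bp, and sites within 1 kb of a TSS 750 bp. Sites in coding exons, 3′ UTRs and noncoding exons were thus near the distal medians, while 5′ UTR sites lay between distal and promoter sites.

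By base composition the exonic classes formed pairs, coding exons with 5′ UTRs and 3′ UTRs with noncoding exons. In the 200 bp around the midpoint, the median GC content was 60% in coding exons, 59.5% in 5′ UTRs, 53% in 3′ UTRs and 51.5% in noncoding exons, beside 50% in introns and 65.5% at promoters. The ratio of observed to expected CpG in 500 bp was 0.47 in coding exons, 0.50 in 5′ UTRs, 0.29 in 3′ UTRs and 0.30 in noncoding exons, beside 0.23 in introns and 0.77 at promoters. Soft-masked repeats covered at least 50% of the 200 bp at 0.244% of coding sites (5 of 2049), 3.95% of 3′ UTR sites and 8.28% of noncoding-exon sites, against 14.1% of intronic and 23.6% of intergenic sites.

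**Figure D1:**
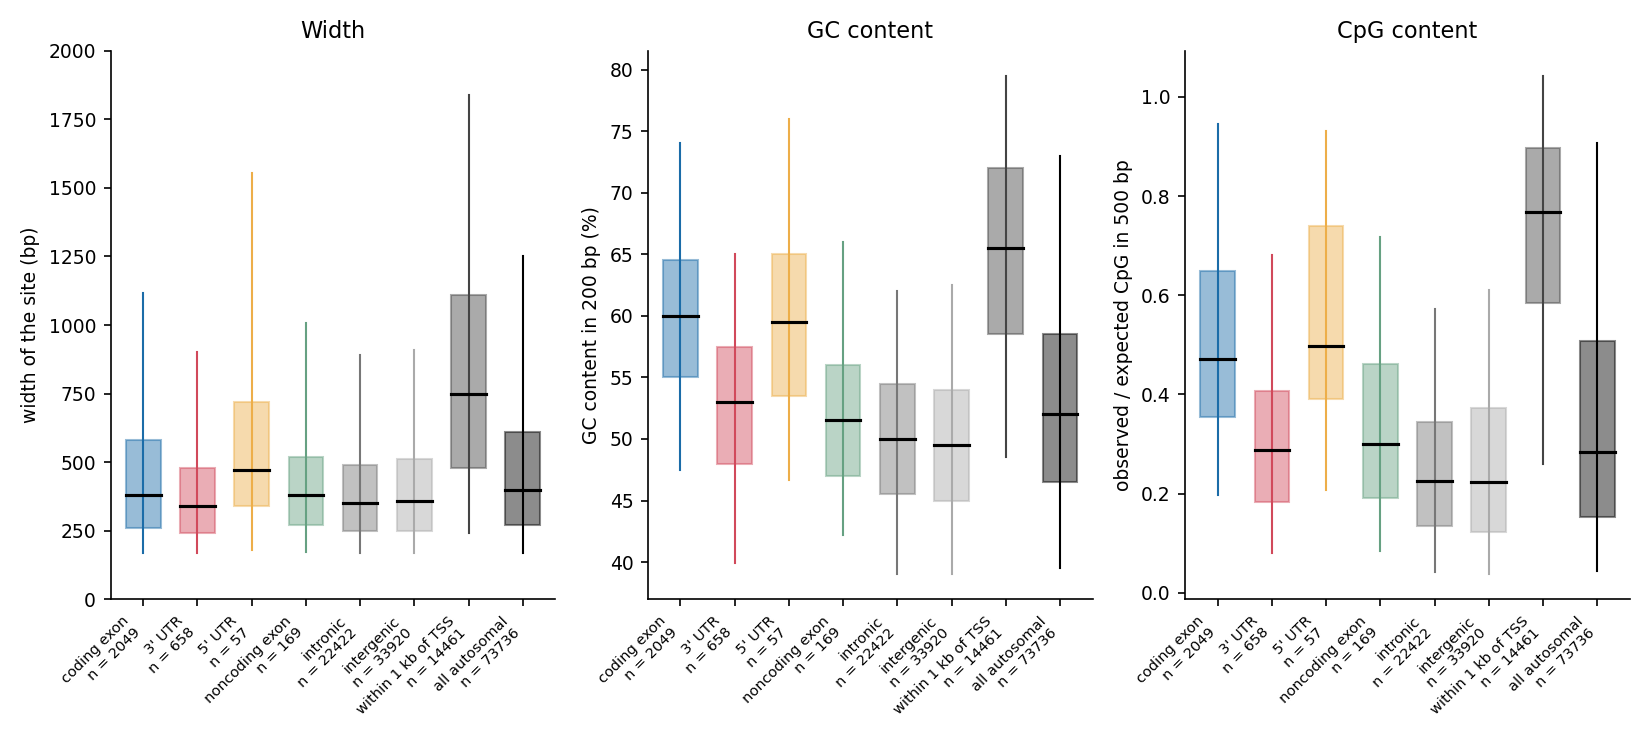
Width (bp), GC content (% of 200 bp) and observed to expected CpG (in 500 bp) of sites by position, with lines at the median, boxes over the quartiles and whiskers from the 5th to the 95th percentile of sites. Coding-exon sites have the width of distal sites (median 380 bp), while their GC content (60%) and CpG ratio (0.47) lie between those of intronic and promoter sites.

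Most coding sites were in internal exons, though the rule of over 1 kb from a TSS leaves out sites near the start of first exons. The share of coding sequence by exon position was not computed. Internal exons held 1330 of the 2049 (64.9%), last exons 636 (31.0%), exons of single-exon transcripts 47 and first exons 36. The median length of the host exon was 508 bp, and 587 sites (28.6%) lay in exons of up to 200 bp, shorter than most sites. As a result 34.7% of coding sites lay wholly within their exon, with a median of 79.1% of the width exonic, whereas 84.2% of 3′ UTR sites did. The median host exon of 3′ UTR sites was 2473 bp long and was the last exon at 637 of 658. Sites in coding exons over 1 kb long were wider and stronger (median width 470 bp, wildtype concentration 5.13) than those in exons of up to 200 bp (310 bp, 4.69).

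The 2933 sites belonged to 2503 host genes, of which 335 had more than 1. The median distance to the nearest TSS was 12326 bp for coding sites, 13559 bp for 3′ UTR sites, 3970 bp for 5′ UTR sites and 6671 bp for noncoding-exon sites. That TSS was the host's own at 61.3% of sites, 64.6% in coding exons and 44.5% in 3′ UTRs. A predicted RefSeq transcript started within 1 kb of 146 of the sites, and a GENCODE transcript within 1 kb of 598 (494 of them coding). At the distance limit itself, the sites just inside were in Ube2ql1 (1002 bp, concentration 6.57 in wildtype and 6.20 in Smad23DKO) and Ntn3 (1003 bp, 3.98 and 3.74). Those just outside were in Cys1 (1000 bp, 4.75 and 4.70) and Gm11762 (995 bp, 3.57 and 3.35).

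Accessibility in coding exons, 3′ UTRs and noncoding exons was near that of distal sites, and in 5′ UTRs it was higher. The 5′ UTR sites include the 57.9% that lay within 1 kb of a GENCODE start, and the levels were not recomputed without them. The median wildtype concentration was 4.88 in coding exons (quartiles 4.07 and 5.83), 4.79 in 3′ UTRs (4.08 and 5.55), 5.17 in 5′ UTRs (4.67 and 6.61) and 4.76 in noncoding exons (4.00 and 5.80). Intronic sites had 4.79, promoter sites 6.70 and all autosomal sites 5.06. A wildtype concentration of 6 or more was found at 35.1% of 5′ UTR sites, against 21.5% of coding and 17.9% of intronic sites. The Smad23DKO medians were 4.81, 4.62, 5.12 and 4.73 in the order of those classes, and 4.65 in introns. Because the concentration counts reads over the whole site, it grows with width; on a scale per kb of site, the wildtype medians were 6.29 in coding exons, 6.35 in 3′ UTRs, 6.75 in 5′ UTRs and 6.35 in noncoding exons, beside 6.37 in introns and 7.05 at promoters.

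The difference between genotypes was small at most exonic sites. The median difference, Smad23DKO minus wildtype on the log2 scale, was -0.07 in coding exons (quartiles -0.37 and 0.21), -0.12 in 3′ UTRs (-0.36 and 0.17), -0.15 in 5′ UTRs (-0.27 and 0.19) and -0.10 in noncoding exons (-0.42 and 0.24). All autosomal sites had -0.08, intronic and intergenic sites -0.12 each, and promoter sites 0.01. A difference below 0 was found at 1153 coding (56.3%) and 397 3′ UTR sites (60.3%), beside 57.5% of all sites. The exonic medians thus lay about that of all sites. Centred on the median of all sites, the coding median was 0.01. The 5′ UTR median, over 57 sites, was also 0.01 once the 33 sites within 1 kb of a GENCODE start were left out.

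**Figure D2:**
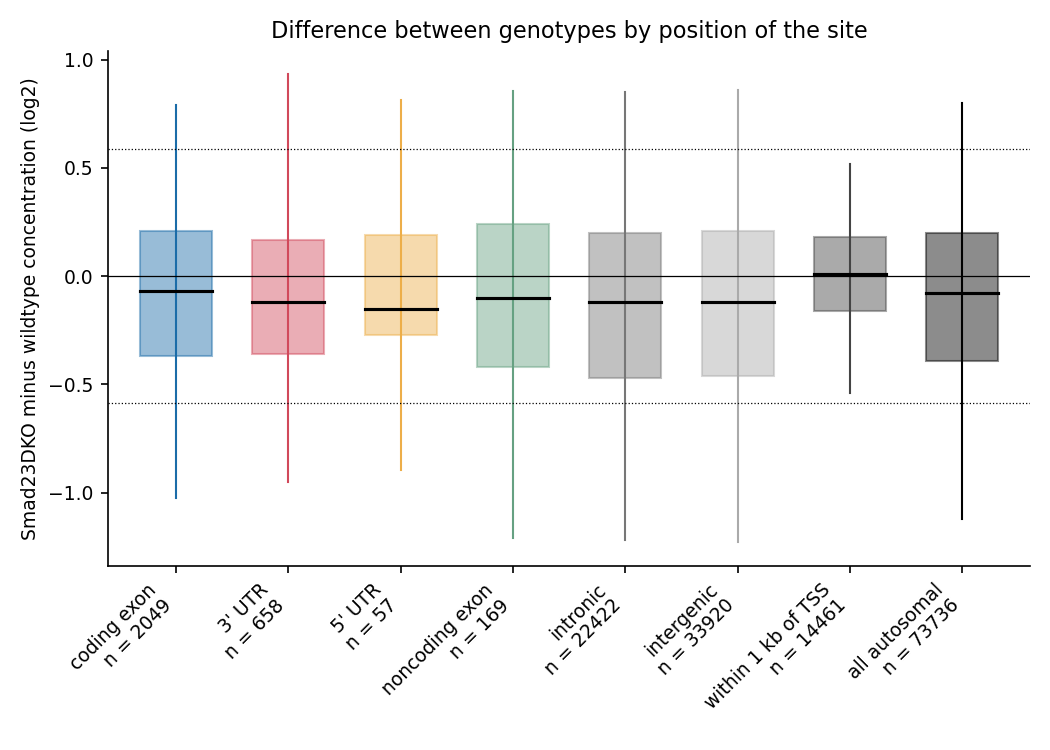
Smad23DKO minus wildtype concentration (log2) by position of the site, with lines at the median, boxes over the quartiles, whiskers from the 5th to the 95th percentile of sites and dotted lines at 1.5-fold. The exonic medians lie between -0.15 and -0.07, near the -0.08 of all autosomal sites.

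Concentrations that differed by over 1.5-fold were counted in each direction. In coding exons 292 sites (14.3%) were lower in Smad23DKO and 170 (8.30%) were higher; of all autosomal sites, 16.0% were lower and 8.55% higher. In 3′ UTRs 87 (13.2%) were lower and 64 (9.73%) higher, in 5′ UTRs 7 and 6 of 57, and in noncoding exons 26 (15.4%) and 17 (10.1%) of 169. Intronic sites gave 19.3% lower and 9.61% higher, and promoter sites 4.20% and 3.75%. The share of higher sites in coding exons was thus near that of all sites, and that of lower sites a little under it and 5 points under the intronic share. When the differences were centred on the median of all sites, the lower and higher coding sites became 224 and 209, the lower ones going from 63.2% to 51.7% of those past 1.5-fold, and the 3′ UTR sites 76 and 76 (from 57.6% to 50% lower). In 5′ UTRs the lower sites went from 53.8% to 40% and in noncoding exons from 60.5% to 47.6%, and over all autosomal sites from 65.2% to 55.8%.

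Weak sites made up much of these counts. At a mean concentration under 4, 29.2% of the 472 coding sites were lower and 20.3% higher; at 6 to 7, 4.30% of 279 were lower and 1.43% higher. The interval from the 5th to the 95th percentile of the difference over all autosomal sites ran from -1.72 to 1.35 at concentrations under 4, from -1.14 to 0.79 at 4 to 5, from -0.87 to 0.58 at 5 to 6, from -0.72 to 0.45 at 6 to 7 and from -0.44 to 0.33 at 7 and over. At the edge of the scale, 5 exonic sites were listed at the lowest value of a column (-0.10 in Smad23DKO and -0.09 in wildtype), and no fold is given for them. In coding exons these were Ubap2 (3.48 in wildtype), Edem1 (3.20) and A2ml1 (2.67), each at the Smad23DKO floor. In 3′ UTRs they were Arhgap11a (1.66 in wildtype), at the Smad23DKO floor, and Nsl1 (2.38 in Smad23DKO), at the wildtype floor. The interval mixes counting noise with real change and serves below as the scale for single sites. Lower coding sites were fewer than lower intronic sites in every concentration range (15.1% against 20.0% at 4 to 5, 8.50% against 13.7% at 5 to 6, 4.30% against 10.7% at 6 to 7 and 1.34% against 6.01% at 7 and over), with the least gap under 4 (29.2% against 30.5%). Lower 3′ UTR sites lay under the intronic share as well, at 13.5%, 9.76%, 7.25% and 0% in the ranges from 4 upwards and 21.6% under 4.

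**Figure D3:**
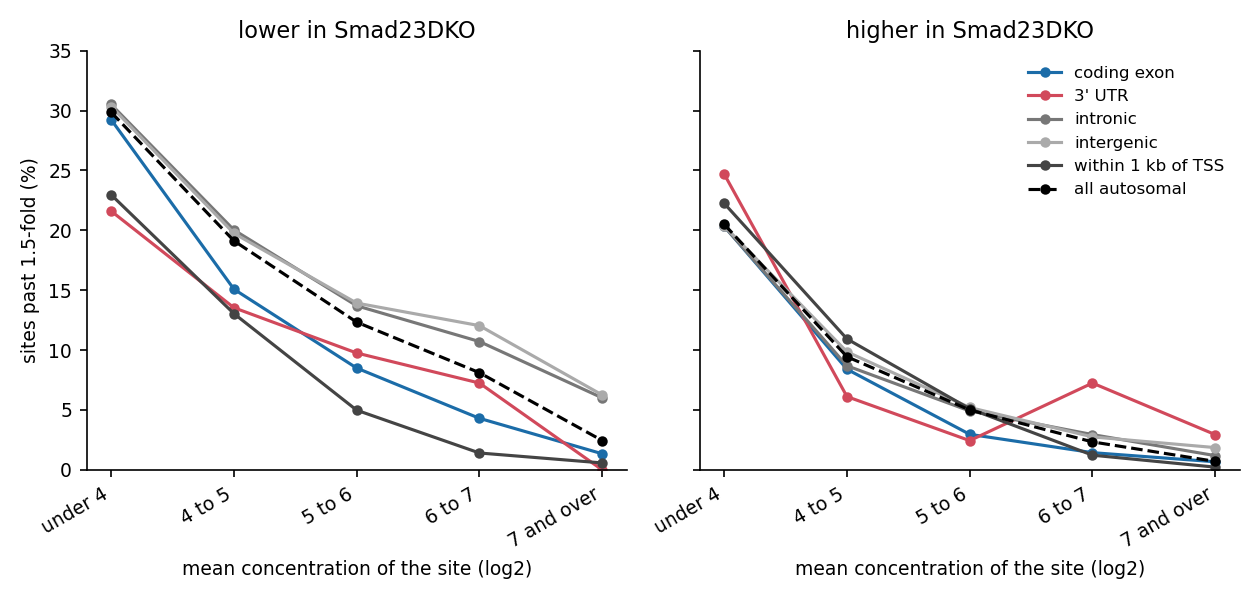
Percent of sites lower (left) or higher (right) by over 1.5-fold in Smad23DKO, by mean concentration of the site (log2), for coding exons, 3′ UTRs, introns, intergenic sequence, sites within 1 kb of a TSS and all autosomal sites. In the left panel the coding line starts with the intronic line at 29.2% and 30.5% and runs below it from a concentration of 4 upwards, while in the right panel the coding and intronic lines lie close together.

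The lower share of the coding sites went with GC and CpG content. It was 21.6% at a GC content under 45% (11 of 51), 18.2% at 45 to 55%, 13.3% at 55 to 65% and 11.9% at 65% and over. The intronic shares in the same GC ranges were 22.4%, 19.3%, 17.1% and 12.4%, beside 14.3% of coding and 19.3% of intronic sites at any GC content. The gap was widest at 55 to 65% (13.3% against 17.1%), the range that held 51.3% of the coding sites. Concentration was not held alike. By CpG ratio, 20.2% of coding sites under 0.25, 15.5% at 0.25 to 0.6 and 9.74% at 0.6 and over were lower, beside 22.0%, 16.6% and 7.40% of intronic sites. The part of base composition in the difference between the classes was not tested. By distance from the TSS, 13.4% of the coding sites up to 2 kb away were lower, 11.5% of those from 2 to 5 kb, 14.0% of those from 5 to 50 kb and 17.7% of the farther ones. It was also 17.4% in exons of up to 200 bp against 10.4% in exons over 1 kb.

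**Figure D4:**
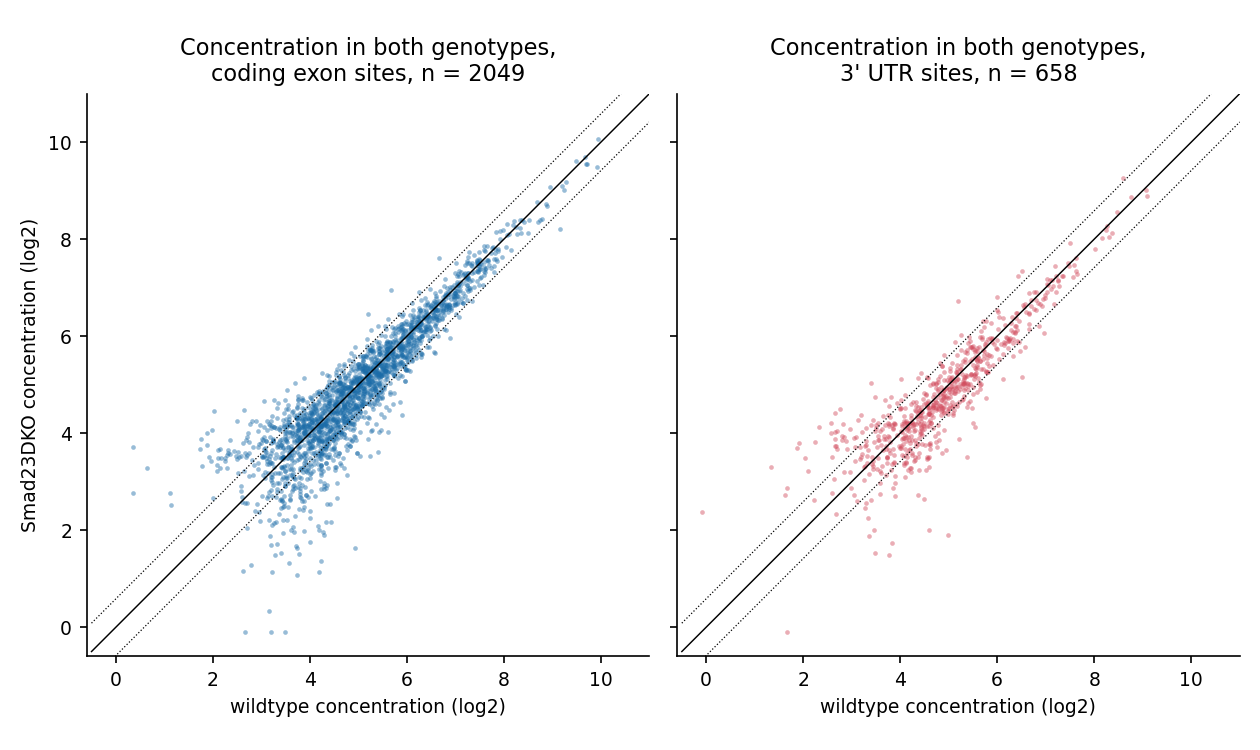
Concentration (log2) in wildtype (x axis) and Smad23DKO (y axis), 1 point per site, for 2049 coding-exon sites and 658 3′ UTR sites, with a solid line at equality and dotted lines at 1.5-fold. Points above a concentration of 7 keep close to the line of equality, and the 3 coding points at the Smad23DKO floor have wildtype concentrations under 4.

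The largest differences in coding exons among sites with a concentration of at least 5 in either genotype were found in genes of varied function. Lower in Smad23DKO were sites in Kif14, a mitotic kinesin (exon 29, chr1:136527130-136527530; 5.40 in wildtype and 3.61 in Smad23DKO, difference -1.79), Cchcr1, a coiled-coil centrosomal protein (5.23 and 3.53, -1.70), and Auts2, a gene of neuronal development (exon 9; 5.61 and 4.03, -1.58). They were followed by Wasf1, an actin regulator of the WAVE complex (5.89 and 4.37, -1.52), Nrf1, a transcription factor of mitochondrial genes (5.04 and 3.54, -1.50), Grm7, a metabotropic glutamate receptor (5.43 and 4.02, -1.41), Cadm3, an adhesion molecule (5.46 and 4.06, -1.40), and Zfp853 (-1.31). All 8 lay below the 5th percentile of sites at their concentration, as their choice by size implies.

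Their surroundings differed. The Kif14 site had 1 other site within 20 kb, with a difference of -0.14, and the Wasf1, Nrf1 and Grm7 sites had none. Around Auts2, 5 of 6 other sites were below 0 and 3 were lower by over 1.5-fold, but an intronic site of low wildtype concentration (1.90 and 3.71) went the other way. The promoter sites of Wasf1 and Nrf1 differed by 0.32 and 0.35, and those of Grm7 and Cadm3 by -0.20 and -0.24. The low values at these 4 exons were thus not accompanied by values lower by over 1.5-fold at the promoter. The neighbourhoods described here and below were chosen after the values were seen.

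Higher in Smad23DKO were sites in Fam155a, a sodium leak channel subunit (exon 3, chr8:9207740-9208030; 3.69 in wildtype and 5.03 in Smad23DKO, difference 1.34), Foxp1, a forkhead factor (exon 4, chr6:99009700-99010270; 5.67 and 6.95, 1.28), Fryl (3.87 and 5.13, 1.26) and Lgr4, an R-spondin receptor of the Wnt pathway (exon 18, chr2:110011910-110012660; 5.20 and 6.45, 1.25). Snx32, a sorting nexin (4.25 and 5.25, 1.00), Egr1, an immediate early zinc finger factor (6.66 and 7.61, 0.95), Actn2, a muscle actinin (5.26 and 6.12, 0.86), and Dbp, a circadian bZIP factor (4.36 and 5.20, 0.84), followed. The sites in Foxp1, Lgr4 and Egr1 had the highest mean concentrations among these (6.44, 5.96 and 7.21). In wildtype the Lgr4 site, at 5.20, was near the median of 5.06 over all autosomal sites. A Foxp1 promoter site 18.5 kb away was nearly equal in both genotypes (7.62 and 7.70), as was the strongest Lgr4 promoter site (9.96 and 9.86) and that of Egr1 (8.79 and 8.83).

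In 3′ UTRs, among sites with a concentration of at least 5 in either genotype, the lowest differences were in Cntnap1, a paranodal adhesion protein (exon 24, chr11:101189600-101190050; 5.37 and 3.52, -1.85), Krt20, a keratin (5.55 and 4.13, -1.42), Cacna2d1, a calcium channel subunit (exon 39, chr5:16370650-16371190; 6.51 and 5.16, -1.35), Wdr72 (5.22 and 3.89, -1.33) and Lama4, a laminin chain (5.50 and 4.22, -1.28). The Cacna2d1 site was the strongest of these, while the promoter site of the gene differed by 0.05. The highest among these were in Klkb1, plasma kallikrein (exon 15; 3.39 and 5.03, 1.64), Sumf1, the sulfatase-activating enzyme (exon 9, chr6:108107270-108107800; 5.20 and 6.73, 1.53), Scrt1, a neuronal zinc finger repressor (4.02 and 5.11, 1.09), Lratd1 (6.42 and 7.25, 0.83) and Hjurp, the CENP-A chaperone (6.51 and 7.34, 0.83). A site in coding exon 7 of Klkb1 differed by 0.58, the same way. Soft-masked repeats covered 63% of the 200 bp in the Sumf1 site. Weaker 3′ UTR sites under that limit reached further, such as those in Gng7 (4.60 and 2.01, -2.59) and Vash2 (1.91 and 3.80, 1.89).

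In 5′ UTRs, under the same limit of at least 5, the lowest were Slc9a5, a sodium/proton exchanger (5.44 and 3.79, -1.65), Lrrc8d, a volume-regulated anion channel subunit (7.20 and 6.82, -0.38), and Mgat1, an N-glycan enzyme (5.38 and 5.07, -0.31). The highest under that limit were Eml6 (6.36 and 7.07, 0.71), Stox2 (5.28 and 5.92, 0.64) and Kifc3, a minus-end kinesin (5.44 and 6.01, 0.57). Predicted RefSeq starts lay 40 bp from the Slc9a5 midpoint, 331 bp from that of Lrrc8d, 367 bp from that of Stox2 and 55 bp from that of Kifc3. The differences in Lrrc8d, Mgat1 and Kifc3 were within 1.5-fold and within the interval of sites at their concentration. The 6 other 5′ UTR sites lower by over 1.5-fold were all weaker, such as P2ry2 (4.34 and 3.06, -1.28).

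In noncoding exons, under the same limit, Gm16897 had a difference of -3.01 (exon 5, chr1:194955600-194956130; 5.90 and 2.89), and Gm29514 (6.07 and 4.70) and 4930404A05Rik (5.66 and 4.29) had -1.37 each. The Gm16897 exon lies 17044 bp from the TSS of Cd34, a sialomucin of blood progenitors, and the Cd34 promoter site had 9.27 and 9.14. Higher were Neat1, the scaffold RNA of paraspeckles (4.74 and 6.68, 1.94), Gm32856 (5.63 and 6.44, 0.81) and Mirt1 (4.62 and 5.25, 0.63). Neat1 had 2 member sites, chr19:5841530-5841760 and chr19:5842290-5843490. The first had concentrations of 2.90 and 4.73, and 4 other sites up to 7.5 kb beyond the second, the one at the promoter included (3.43 and 4.19), had differences of 0.76, 0.08, 0.86 and 0.67. All 6 sites of the locus thus had higher values in Smad23DKO, 5 of them by over 1.5-fold.

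**Figure D5:**
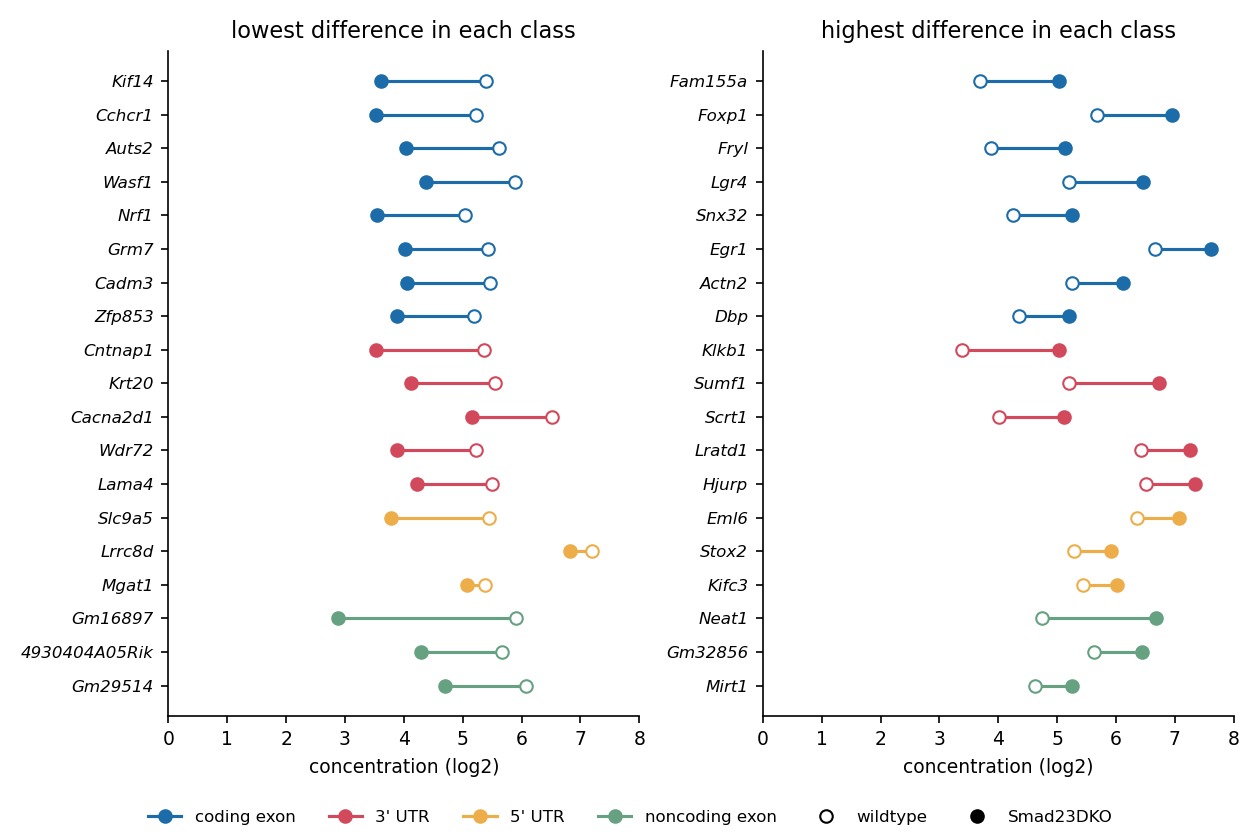
Concentration (log2) in wildtype (open points) and Smad23DKO (filled points) at the exonic sites with the lowest (left) and highest (right) difference in each class, by host gene, among sites of at least 5 in either genotype. Gm16897 (5.90 and 2.89) and Neat1 (4.74 and 6.68) span the widest ranges, and the 5′ UTR sites in Lrrc8d and Mgat1 the narrowest.

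The strongest exonic sites, the 3 of highest mean concentration in each class, were within the interval of sites at their concentration, except Nlrp12. In coding exons these were in Pgr, the progesterone receptor (exon 1, chr9:8899500-8902680; 9.95 in wildtype and 10.06 in Smad23DKO), Sfi1, a centrin-binding protein (9.91 and 9.48), and Soga3 (9.67 and 9.69). The Pgr site was 3180 bp wide and the curated Pgr TSS lay 1257 bp from its midpoint, so the site itself covered this TSS. A GENCODE transcript started 622 bp from the Pgr midpoint, 85 bp from that of Soga3 and 1280 bp from that of Sfi1. Sfi1 is known for extra copies in the mouse genome, so its value is uncertain; 6 of the 9 other sites within 20 kb were lower by over 1.5-fold. The widest were in Pcdh17 (4500 bp; 9.24 and 9.02) and Sp8, a zinc finger factor of limb and brain (4370 bp; 9.70 and 9.55). The curated Sp8 TSS lay 1106 bp from the midpoint of the Sp8 site and so within that site as well. Per kb of site, Pgr had 8.28 in wildtype, Pcdh17 7.07 and Sp8 7.57.

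In 3′ UTRs the strongest were in Rps15a, a ribosomal protein gene (4540 bp; 9.09 and 8.89), Iffo1 (9.06 and 9.01) and Nlrp12, an NLR family gene (3030 bp; 8.59 and 9.26, difference 0.67). The midpoint of the Nlrp12 site lay 1092 bp from the TSS of Mir295, of a microRNA cluster known from pluripotent cells, and the site covered that TSS. Exons made up 56.6% of its width. Its difference was above the 95th percentile of strong sites (0.33), and all 6 other sites within 20 kb were also above 0, from 0.04 to 1.66. The strongest 5′ UTR sites were in Slit2, an axon guidance ligand (9.59 and 9.40), Tmem178b (8.62 and 8.45) and Fam110b (7.99 and 8.11). The Slit2 site was 3990 bp wide and covered the curated Slit2 TSS, 1380 bp from its midpoint. In noncoding exons they were in Gm10789 (8.89 and 8.91), Gm30789 (8.39 and 8.69) and 9130024F11Rik (8.16 and 8.10). GENCODE starts lay 459 bp from the Slit2 midpoint, 646 bp from that of Tmem178b and 491 bp from that of Fam110b. They lay 376 bp from the Gm10789 midpoint, 368 bp from that of 9130024F11Rik and 2113 bp from that of Gm30789. For Rps15a, Iffo1 and Nlrp12 the nearest was over 1 kb from the midpoint, though at Nlrp12 it lay within the site.

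Syne1 had the most sites, 6 in coding exons 15 to 77 of a transcript of 146 exons. Their differences were -0.12, -0.27, 0.29, 0.07, -1.08 and 0.13 from exon 77 to exon 15, with the -1.08 at a weak site (3.56 and 2.48). Akap13, Mrc2, Palld, Pclo and Synpo had 5 each. The 5 sites of Pclo, a presynaptic scaffold, lay below 0 in 4 cases (-0.64, -0.61, -0.36 and -0.42) and above 0 at the last exon (3.27 and 4.13). The 5 sites of Synpo, an actin-associated protein, all lay below 0, from -0.46 to -0.10, and those of Mrc2 ran from -0.68 to 0.15. In Palld, an actin scaffold, they ran from -0.35 to 0.87 and in Akap13, a kinase anchor, from -0.46 to 0.17. Of these 6 genes, Synpo was the one whose sites all lay on the same side of 0. All 5 of its differences were within 1.5-fold and within the interval of sites at their concentration. Of all autosomal sites, 57.5% lay below 0.

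Members of the Nodal, TGF-beta and BMP pathway held 20 of the sites in 19 genes, of which 5 were lower by over 1.5-fold and 0 higher, beside 16.0% and 8.55% of all sites. The median was -0.25, and 15 of 20 were below 0. Among ligands and their inhibitors, Lefty1, a Nodal antagonist and known Smad2/3 target, had a site in its 3′ UTR (exon 4, chr1:180937890-180938250) with 4.99 in wildtype and 1.90 in Smad23DKO, a difference of -3.09. Bmp4 had -1.05 at a weak site (3.80 and 2.75), Inhbb, an activin subunit, -0.52 (4.24 and 3.72) and Gdf3 -0.26 (4.90 and 4.64). Sites in Bmp2 (7.67 and 7.56) and Grem1, a BMP antagonist (7.51 and 7.39), were strong and nearly equal, and Nodal itself had 5.58 and 5.80. Of the latent TGF-beta binding proteins, Ltbp1 had -2.04 (3.72 and 1.68), Ltbp2 -0.61 (5.04 and 4.43) and Ltbp4 0.32 (3.39 and 3.71).

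Among receptors, Acvr1c, the receptor Alk7, had -0.64 (4.65 and 4.01), Tgfbr2 -0.42 (4.42 and 4.00), Acvr2b -0.24 (4.01 and 3.77), and the 5′ UTR site of Acvr1 0.03 (5.38 and 5.41). Both Bmpr1b sites were near equality (5.64 and 5.49; 7.04 and 6.93). Of the Smad genes, Smad9 had -0.36 (5.28 and 4.92) and the inhibitory Smad7 -0.31 (3.02 and 2.71). The Lefty1 and Ltbp1 differences lay below the interval of sites at their concentration, and the Bmp4 and Acvr1c differences within it. The Ltbp1 site was weak, with a mean concentration of 3.03.

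The Lefty1 exon stood in a neighbourhood of lower values. Within 20 kb there were 6 other sites, and all 6 were below 0. The Lefty1 promoter site had 6.01 in wildtype and was listed at the floor of -0.10 in Smad23DKO, a site 13 kb upstream had 6.68 and 3.74, and one 4.2 kb upstream had 5.11 and 4.04. On the far side, the sites at and beyond the TSS of the neighbouring gene Tmem63a had differences of -0.50 and -0.38. A predicted RefSeq transcript started 372 bp from the midpoint of the exonic site.

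Genes of the pluripotency network held 8 sites, of which 1 was lower (12.5%) and 0 higher, beside 16.0% and 8.55% of all sites. The site in the single exon of Sox2 had 3.65 and 2.85 (-0.80) while the Sox2 promoter site had 6.25 and 6.63. Klf5 had 4.72 and 4.94 in exon 2 and 5.13 and 4.74 in exon 4, Zfp42 (Rex1) 4.17 and 4.50, Klf4 6.24 and 6.32, Foxd3 5.99 and 5.89, and Nanog, in a weak site, 2.66 and 2.56. Germ layer and axis regulators held 14 sites, with 1 lower, in Fgf8 (4.24 and 3.56). The organizer gene Gsc had 5.30 and 4.78, Hhex 3.66 and 3.19, Gata6 5.71 and 5.47, and Foxa1 7.30 and 7.14. Trophoblast and extra-embryonic genes held 12 sites with 1 lower, in the endocytic receptor gene Cubn (4.58 and 3.53), and the Gata3 site had 5.81 and 5.59. The Sox2, Fgf8, Gsc and Cubn differences were all within the interval of sites at their concentration.

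Wnt pathway genes held 22 sites, 4 lower (18.2%) and 3 higher (13.6%), beside 16.0% and 8.55% of all sites. Beside Lgr4, Wnt5a had -1.09 in exon 4 (4.22 and 3.13) and Lgr5, a further R-spondin receptor, -0.63 at a stronger site (6.29 and 5.66) and 0.41 at a weaker one (3.48 and 3.89). Vangl2 (2.70 and 3.55) and 1 of 3 sites in Celsr3 (2.67 and 3.59), both planar polarity genes, were higher from low levels. In the FGF, ERK, Notch and Hedgehog list, 5 of 17 were lower (29.4%) and 3 higher (17.6%), against the same background. Notch3 had 3.16 and 0.34, Fgfrl1 3.26 and 2.14, and Hhip, a Hedgehog antagonist, 5.96 and 5.08. The feedback inhibitor Spry1 had 3.75 and 4.76 and the 3′ UTR of Notch1 3.19 and 4.37, while the coding site of Notch1 had 6.19 and 5.98. The Lgr4, Spry1 and Notch3 differences lay outside the interval of sites at their concentration, and those of Wnt5a, Vangl2, Fgfrl1, Celsr3 and the Notch1 3′ UTR within it. The Notch3 site was weak, with a Smad23DKO value near the floor of -0.10. Its mean concentration of 2.35 lay low in the range under 4, where all autosomal sites had a median of 3.58, so the interval is a loose scale for it.

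The larger families were read against 16.0% lower and 8.55% higher of all sites. Homeobox genes held 56 sites, 7 lower (12.5%) and 4 higher (7.14%), and Fox, Sox, Zic, T-box and bHLH genes 39, with 4 lower and 1 higher. C2H2 zinc finger genes held 111 sites with a median of 0.09, 14 lower (12.6%) and 8 higher (7.21%). Zfpm2, a Gata cofactor, had 4.33 and 2.16 and Zbtb49 0.35 and 3.71, both weak, and Zscan10, an embryonic stem cell zinc finger factor, 6.89 and 5.97 at the strongest of its 3 sites. Lmx1b, a LIM homeodomain factor, had 3.73 and 1.63, with a predicted RefSeq start 31 bp away, and Zfhx4 5.63 and 4.47. Atoh8, a bHLH factor, had 4.30 and 2.97.

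Protocadherins and cadherins held 36 sites (6 lower, 3 higher), matrix genes 57 (8 lower, 4 higher), axon guidance genes 33 (4 lower, 1 higher), ion channels 80 (7 lower, 6 higher) and dyneins, kinesins and myosins 43 (6 lower, 1 higher). Their medians were -0.23, -0.08, -0.19, -0.17 and -0.08. Col11a1, a fibrillar collagen, had 4.00 and 2.25, Sema4f -1.10 and Chrna7, a nicotinic receptor, 3.35 and 4.63. These families were taken by the first letters of the symbol, so that a few members have other roles, such as Trp63 among the channels and Unc5cl among the guidance genes. DNA methylation and chromatin regulators held 19 sites with a median of 0.13 (3 lower, 2 higher), among them Chd5 (5.47 and 4.39), Hdac7 (4.74 and 3.74) and Chd8 (3.15 and 4.18). Imprinted genes held 11 (1 lower, 2 higher), with a median of 0.24; both sites in the last exon of H13 were above 0 (6.01 and 6.49; 2.59 and 3.52), and Magel2 had 2.64 and 4.47.

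Runs of neighbouring lowered sites crossed few exonic sites. The runs were found from these same differences, so lower values at sites within them follow in large part from that choice. The longest, on chromosome 6 from 68829465 to 80057025 (11.2 Mb), had a median difference of -1.11 over 191 sites with a mean concentration of at least 4. It held 3 exonic sites, all lower, the Atoh8 site among them. A run on chromosome 16 from 5352240 to 7685650 held 2 coding sites, both lower, with a median of -1.82, and those on chromosomes 1 and 19 held 0. Runs thus held 5 of the 412 lower exonic sites. At Atoh8, all 3 other sites within 20 kb were lower by over 1.5-fold too, the promoter site among them (4.91 and 2.24).

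The host's own promoter was compared with the exonic site. A site within 1 kb of a TSS, with the host alone as the gene of its nearest TSS, was found for 2173 of the 2933 (74.1%). Sites nearest to a TSS of another gene or to a shared TSS were not counted, and the strongest per gene was taken. The median wildtype concentration was 7.27 at these promoter sites against 4.87 at the exons. Of 295 such exonic sites lower by over 1.5-fold, 13 had a promoter site that was also lower and 4 one that was higher; of 200 higher, 8 had a higher and 2 a lower one. Over all promoter sites, 4.20% were lower and 3.75% higher. Those shares went with strength, from 23.0% and 22.2% at a mean concentration under 4 to 0.58% and 0.22% at 7 and over. The host promoter sites were each gene's strongest, so all promoter sites are not a like background. Whether these counts differ from those of promoter sites of like strength was not tested. The correlation of both differences over the 2173 pairs was 0.18 (Spearman), as a description across sites that share libraries and, in part, genes. The nearest other site up to 5 kb away gave 0.18 for 862 coding and 0.25 for 318 3′ UTR sites, beside 0.16 for 7798 intronic ones. Where a coding site was lower, that neighbour was lower at 18.1% (19 of 105), against 12.3% of all neighbours of coding sites.

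Motif letters were counted in the 200 bp around the midpoint on both strands. The CTCF consensus was found at 2.68% of coding, 7.75% of 3′ UTR, 8.88% of noncoding-exon and 0% of 5′ UTR sites (0 of 57, which allows a share of up to 5.26% from 3 counts, for counting error only), beside 5.20% of intronic and 0.62% of promoter sites and 3.97% of all autosomal sites. In 500 bp the shares were 4.64% of coding and 4.99% of all sites, so the gap between them depended on the window. The 55 coding sites with it had a median difference of -0.13, and 21.8% of them were lower, against -0.15 and 13.3% of all 2927 sites with a match. ATGCAAAT was found at 0.54% of coding (11 sites), 1.52% of 3′ UTR and 3.51% of 5′ UTR sites (2 of 57), beside 2.62% of intronic and 2.34% of all sites. TGTGGATT was found at 0.78% of coding, 0.61% of 3′ UTR and 0.73% of all sites. All 537 sites with TGTGGATT had a median of -0.25 and 33.0% lower, whereas the 16 coding ones had -0.15 and 18.8% lower.

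The remaining letters were counted in the same way. GGATTA was at 1.95% of coding, 4.71% of 3′ UTR and 5.84% of all sites, GGAATG at 7.96%, 14.4% and 12.3%, and CATTGTT, of Sox factors, at 1.46%, 1.37% and 2.86%. TGTGGATT followed by A also holds GGATTA, so these letters can share bases, and in the Bmp4 exon GGATTA stands directly beside GGAATG read on the other strand. TCAAGGTCA, of Esrrb, was at 0.24% of coding and 0.28% of all sites, and GTCTAGAC, the palindromic Smad element, at 0 of 2049 coding sites (which allows up to 0.146%), 1 of 658 3′ UTR sites and 0.13% of all. GGGGCGGGG, the GC box of Sp and Klf factors, was at 2.64% of coding and 1.52% of 3′ UTR sites, beside 12.9% of promoter and 4.29% of all sites. The letters show what stands in these windows and not whether a factor bound there.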

How the data were processed

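ATAC-seq was measured in 3 wildtype and 3 Smad23DKO EpiLC differentiations, with 1 Tn5-treated genomic DNA control. The authors mapped read pairs of 75 bp with bowtie2 (genome mm10), kept uniquely placed reads outside blacklisted regions, and took out PCR duplicates with Samtools. DANPOS2 gave the sites, from all triplicates with the genomic DNA as control, and DiffBind the concentrations. Versions and the normalisation method are not given in the sources used here. The deposited values used here are DiffBind concentrations, the log2 of the mean normalised reads per genotype. They are rounded to 2 decimals and hold no replicate or depth, so the precision of single values is unknown. The table also has the authors' own columns of fold change, p-value and FDR, which were not used.

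Site midpoints were placed in exons of 43783 curated RefSeq transcripts (GRCm38.p6), with 30177 TSSs. The difference was Smad23DKO minus wildtype concentration, counted past 1.5-fold. GC content, soft-masked repeats and motif letters were read in 200 bp around the midpoint, CpG in 500 bp. Python 3.11.15, pandas 2.3.3, numpy 2.4.6, scipy 1.17.1, matplotlib 3.10.9 and pysam 0.24.0 were used. The exon class of a position, the shares, the intervals and the motif search were tested on simulated data, and the other steps were not. No test between genotypes was made: the columns used hold a mean per genotype, and the authors' own statistics were left out by choice.

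Named sites were the 8 lowest and 8 highest differences in coding exons at a concentration of at least 5 in either genotype (5 and 5 in 3′ UTRs, 3 and 3 in 5′ UTRs and in noncoding exons), the strongest and widest sites, the genes with the most sites, up to 4 sites per gene list, the sites at the distance limit, and Smad2 and Smad3. Further list members, the sites at the floor and the neighbourhoods were picked once their values were known. The sites and gene lists were chosen with earlier results of these data known. Alternatives changed the distance limit, the annotation, the concentration minimum, the fold, the centring and the motif window. Sites on sex chromosomes were left out.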

Additional observations from a re-analysis of the deposited data

How the results depend on the processing

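No paired analysis was possible because the columns used hold 1 mean per genotype, so no replicate could be paired or left out. Of 113 values recomputed under an alternative, 93 kept their sign and stayed within the 95% interval of the main value or, for counts, within 1.5 times of it. The interval was taken across sites, by order statistics for medians and the Wilson method for shares. Sites share libraries and are not replicates, so it holds no spread between differentiations. The count of 93 thus describes changes of setting and not replicate error. When differences were centred on the median of all autosomal sites, the coding median changed sign to 0.01, the 3′ UTR median became -0.04, and 10.9% of coding sites were lower and 10.2% higher (13.4% and 10.6% of all sites). Without sites within 1 kb of a GENCODE start, chosen after seeing the data, the 5′ UTR median changed sign to 0.01. At a mean concentration of at least 4, 9.77% of coding and 10.5% of 3′ UTR sites were lower and 4.69% and 4.84% higher (12.4% and 5.45% of all). At 5 and over these were 6.10%, 7.87%, 2.14% and 3.75% (8.55% and 3.12% of all), and the noncoding-exon median was -0.20. With 2-fold in place of 1.5-fold, 5.37% of coding and 4.41% of 3′ UTR sites were lower and 2.93% and 4.56% higher (6.39% and 3.03% of all). The coding wildtype median was 4.79 where exons had to cover at least 50% of the width. The CTCF consensus was in 4.64% of coding and 4.99% of all sites in 500 bp. Leaving out the 4 runs of lowered sites, also chosen after seeing the data, reversed or moved none of the medians and shares it was run for. The cause of these shifts was not tested, beyond fewer weak sites or a stricter fold by construction. From the concentrations alone, no single site's difference was set against replicate error.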
